A study of Mus musculus with 6 samples.

Results

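Amino acid transporters of the plasma membrane and the lysosome were compared between 2 mouse leukemias and normal pro-B cells. The genes were taken by symbol: every row of the count table that began with Slc1a, Slc3a, Slc6a, Slc7a, Slc36a, Slc38a or Slc43a and had at least 10 counts summed over the 6 libraries. This gave 39 genes of 33924 in the table. A further 23 rows with these prefixes held 0 to 9 counts and were not analysed further. The rule used no difference between groups. Among the 39, Slc7a6os is not a transporter but the opposite-strand neighbour of Slc7a6, and the families also hold carriers of taurine, creatine, betaine and neurotransmitters.

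Total RNA was sequenced from 3 groups of 2 libraries each. Both leukemias, numbered 1 and 92, belong to a model that joins the fusion gene Mll-Af4 with mutant N-Ras. Mll-Af4 donor mice were 6 to 8 weeks old, and their marrow was depleted of lineage-marked cells and sorted for c-Kit+ Sca1+ cells. These stem and progenitor cells received the retrovirus MSCV-cre-IRES-TdTomato and then a GFP-marked MSCV retrovirus with N-RasG12D. Recipients given 900 rads were injected with 250000 of them and 200000 wild-type helper marrow cells, so a recipient may also hold normal blood cells of helper origin. The comparison cells were pro-B cells of wild-type marrow (B220+ CD43+ IgM-), which carried neither the fusion nor a retrovirus and for which no age is given. How the leukemia cells were isolated for RNA is likewise not given.

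Amino acid carriers supply protein synthesis and decide which amino acids a cell can sense. Slc3a2 is the heavy chain that brings light chains such as Slc7a5 (large neutral amino acids) and Slc7a11 (cystine in exchange for glutamate, the feed for glutathione) to the cell surface. Slc1a5 and the Slc38 carriers move glutamine and small neutral amino acids, and Slc7a1 moves arginine and lysine. At the lysosome, Slc38a9 senses arginine for the kinase complex mTORC1, while Slc36a1 and Slc38a7 let amino acids out. The transcription factor ATF4, made when amino acids run short, is known to induce several of these genes, among them Slc7a11, Slc7a5, Slc3a2 and Slc7a1.

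The libraries held 22153444 to 27444759 gene counts, and at that depth 3 counts are worth 0.111 to 0.140 CPM (library-scaled counts, with TMM factors). The labels do not say whether replicates are separate animals, so a p from them measures the spread between libraries, which may be technical. Replicates of leukemia 1 differed far more (SD of log2 differences 0.929) than those of leukemia 92 (0.209) or pro-B cells (0.212). Over the 39 genes alone these SDs were 0.85, 0.171 and 0.174. The 12 pro-B markers summed to 4670 to 6450 CPM in all libraries, and none was at 0 in all of them. The sum does not show single markers. In leukemia 92 against pro-B cells 4 of the 12 were called higher and 6 lower in the test described below. Of all genes 33.9% and 37.8% were. The 10 granulocyte markers summed to 16100 CPM in leukemia 1 replicate 2 against 175 to 765 CPM elsewhere, and the 9 macrophage markers to 324 to 2680 CPM in leukemia against 176 and 189 CPM in pro-B cells. In the pro-B libraries, T and NK markers (12 genes; 452 and 430 CPM), plasmacytoid dendritic markers (8 genes; 3160 and 3570 CPM) and erythroid and platelet markers (10 genes; 77.1 and 183 CPM) were higher than in leukemia (at most 59.2, 552 and 8.64 CPM). In bulk RNA, fewer cells of a type and less RNA per cell cannot be told apart.

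Over both leukemias, with counts summed within each, 5 transporter genes rose against pro-B cells and 1 fell. Those that rose were Slc6a12 and Slc6a13, GABA carriers that also move betaine or taurine, the cystine carrier Slc7a11, the lysosomal glutamine carrier Slc38a7, and Slc43a2, which moves large neutral amino acids. Slc38a5, a carrier of glutamine and other small neutral amino acids, fell. Of the 39 genes 32 passed the filter on low counts, so 26 were tested without passing. Among all 15280 genes tested 9.54% rose and 10.7% fell (edgeR quasi-likelihood test, Benjamini-Hochberg adjusted p under 0.05). Whether 5 and 1 of 32 differ from those shares was not tested. At an unadjusted p under 0.05 there were 7 rises and 4 falls, beside 5922 of all 15280 genes in either direction. The median log2 change was 0.36 over the 32 genes and 0.02 over all genes, and 21 of the 32 changes were above 0.

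Promoter windows of 4 of the 39 genes are shown as examples that hold a short element close to the start of transcription. Other genes with such an element are named below the windows. They run from 250 bases before to 50 bases after the RefSeq start (build GRCm38.p6, which is not the build named for the counts). The 2 elements below were searched on both strands: TGATGNAA, the type of site that ATF4 binds with a C/EBP partner, and CACGTG, the E-box, which reads the same on both strands. The matches are in capitals. Slc7a11 is the cystine carrier that rose, Slc1a4 a serine and alanine carrier high in leukemia 1, Slc38a7 the lysosomal carrier that rose and Slc38a5 the one that fell.
Slc7a11, chr3:50443564-50443863, minus strand: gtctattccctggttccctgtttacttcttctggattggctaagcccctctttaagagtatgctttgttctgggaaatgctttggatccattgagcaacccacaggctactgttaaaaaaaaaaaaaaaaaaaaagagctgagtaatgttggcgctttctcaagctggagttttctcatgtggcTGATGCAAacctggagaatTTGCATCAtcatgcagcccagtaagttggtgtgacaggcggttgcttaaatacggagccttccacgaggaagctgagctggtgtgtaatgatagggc
Slc1a4, chr11:20332664-20332963, minus strand: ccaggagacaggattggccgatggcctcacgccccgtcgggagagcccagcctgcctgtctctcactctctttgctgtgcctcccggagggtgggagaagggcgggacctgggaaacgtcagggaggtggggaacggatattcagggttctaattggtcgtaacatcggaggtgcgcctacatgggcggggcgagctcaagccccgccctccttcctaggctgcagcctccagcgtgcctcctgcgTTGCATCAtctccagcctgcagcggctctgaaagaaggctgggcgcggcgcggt
Slc38a7, chr8:95853442-95853741, minus strand: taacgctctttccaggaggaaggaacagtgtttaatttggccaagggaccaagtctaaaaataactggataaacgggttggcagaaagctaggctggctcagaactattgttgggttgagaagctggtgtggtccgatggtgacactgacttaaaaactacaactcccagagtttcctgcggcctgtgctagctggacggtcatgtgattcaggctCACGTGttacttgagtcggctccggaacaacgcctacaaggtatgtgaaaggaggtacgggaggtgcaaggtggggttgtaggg
Slc38a5, chrX:8271131-8271430, plus strand: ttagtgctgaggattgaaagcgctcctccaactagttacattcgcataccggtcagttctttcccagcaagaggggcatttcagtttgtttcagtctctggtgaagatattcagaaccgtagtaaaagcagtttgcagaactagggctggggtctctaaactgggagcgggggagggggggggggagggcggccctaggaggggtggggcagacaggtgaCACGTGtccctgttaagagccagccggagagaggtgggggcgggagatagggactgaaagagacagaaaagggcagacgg
The first 2 windows hold TGATGNAA and the last 2 hold CACGTG. In Slc7a11 the element reads in the printed direction starting 66 bases before the start, and again on the opposite strand starting 47 bases before it. In Slc1a4 it lies on the opposite strand at 4 bases before the start. Of the 39 genes 30 were in the promoter table, and 3 held TGATGNAA (Slc7a11, Slc1a4 and Slc7a7) against 4.51% of all 27025 genes, or 3.97% of 32851 windows. CACGTG was in 4 (Slc36a1, Slc38a5, Slc38a7 and Slc43a1) against 8.09% of all genes and 7.15% of windows. A match describes letters only and is no evidence that a factor binds there.

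**Figure D1:**
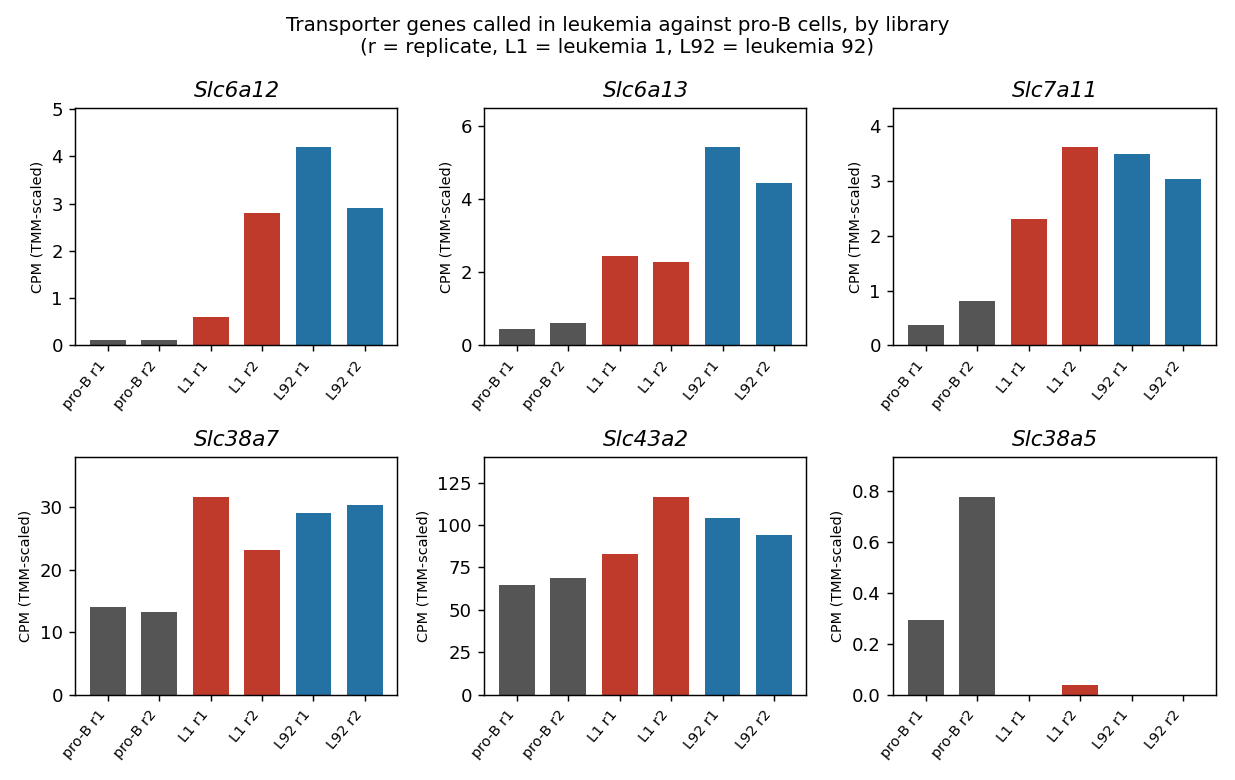
CPM (y axis, linear, from 0) of the 6 transporter genes that passed the test in leukemia against pro-B cells, 1 bar per library (grey pro-B, red leukemia 1, blue leukemia 92; no error bars, each bar is 1 library). All 4 leukemia bars stand above both pro-B bars for the first 5 genes, and Slc38a5 has 0, 1, 0 and 0 counts in leukemia.

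Cystine import and its partner chain differed in which libraries were high. Slc7a11 had 2.32 and 3.62 CPM in leukemia 1, 3.49 and 3.04 CPM in leukemia 92, and 0.370 and 0.819 CPM in pro-B cells. All 4 leukemia libraries lay above both pro-B libraries, with means of 3.12 ± 0.59 (SD, n = 4) and 0.594 ± 0.317 CPM (SD, n = 2). The log2 change was 2.41 (SE 0.53, edgeR adjusted p = 0.049). Slc3a2, the heavy chain, had 220.1 and 174 CPM in leukemia 1, 115 and 133 CPM in leukemia 92, and 113 and 137 CPM in pro-B cells. Only the leukemia 1 libraries lay above the pro-B range, and the change of 0.35 over both leukemias did not pass (SE 0.25, edgeR adjusted p = 0.37). The related heavy chain Slc3a1 had at most 0.234 CPM in any library and was not tested.

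The Slc6 family, sodium- and chloride-coupled carriers of neurotransmitters, osmolytes and some amino acids, gave the largest rises that passed over both leukemias. Slc6a12, the betaine and GABA carrier BGT1, had 3 counts in each pro-B library (0.111 and 0.117 CPM). In leukemia it had 0.609 and 2.81 CPM (leukemia 1) and 4.19 and 2.90 CPM (leukemia 92). Every leukemia library was above both pro-B libraries, and the log2 change was 4.53 (SE 0.64, edgeR adjusted p = 0.023). Slc6a13, the GABA and taurine carrier GAT2, had 2.44 and 2.29 CPM in leukemia 1, 5.43 and 4.44 CPM in leukemia 92, and 0.444 and 0.624 CPM in pro-B cells. Its leukemia libraries did not overlap the pro-B libraries either, and its log2 change was 2.79 (SE 0.59, edgeR adjusted p = 0.047). These 2 genes lie next to each other in RefSeq, with 0 coding genes between them and spans that do not overlap.

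The taurine carrier Slc6a6 was far more abundant. It had 191 and 138 CPM in leukemia 1, 284 and 264 CPM in leukemia 92, and 111 and 122 CPM in pro-B cells, again with no overlap. The change of 0.93 over both leukemias did not pass (SE 0.32, edgeR adjusted p = 0.12), while in leukemia 92 alone Slc6a6 rose by 1.24 (edgeR adjusted p = 2e-06). DESeq2 did call it over both leukemias, at 0.92 with an adjusted p of 0.031. Slc6a9, the glycine carrier GlyT1, was low everywhere: 0.528 and 0.296 CPM in leukemia 1, 0.206 and 0.187 CPM in leukemia 92, and 0.926 and 1.01 CPM in pro-B cells. It fell in leukemia 92 by 2.27 on the log2 scale (edgeR adjusted p = 0.0013). Slc6a9 is also a carrier of red cell precursors, and the summed erythroid and platelet markers of the pro-B libraries stood above those of leukemia (values above). Their part in this result was not tested. The creatine carrier Slc6a8 is given with the leukemia 1 libraries below, and Slc6a19, Slc6a20a and Slc6a4 had at most 0.517 CPM in any library. Slc6a20a and its close copy Slc6a20b, which had 9 counts in all, may share reads.

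The lysosomal carriers of the Slc38 and Slc36 families gave 1 call over both leukemias and further calls in leukemia 92 against pro-B cells. Slc38a7, which exports glutamine and asparagine from the lysosome, had 31.7 and 23.2 CPM in leukemia 1, 29.2 and 30.3 CPM in leukemia 92, and 14.1 and 13.2 CPM in pro-B cells. The leukemia mean was 28.6 ± 3.8 CPM (SD, n = 4) against 13.7 ± 0.58 CPM (SD, n = 2), with no overlap. The log2 change was 1.07 (SE 0.17, edgeR adjusted p = 0.028). Slc36a1, the proton-coupled carrier of small amino acids, had 24.6 and 33.8 CPM in leukemia 1, 45.1 and 40.2 CPM in leukemia 92, and 23.9 and 25.8 CPM in pro-B cells. Leukemia 1 overlapped the pro-B range and leukemia 92 did not. The change was 0.56 over both leukemias (edgeR adjusted p = 0.20) and 0.79 in leukemia 92 (edgeR adjusted p = 8.3e-05).

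Slc38a9, the arginine sensor, lay on either side of pro-B cells in the 2 leukemias. It had 32.7 and 40.3 CPM in leukemia 1, 59.8 and 61.4 CPM in leukemia 92, and 50.8 and 49.5 CPM in pro-B cells. It rose in leukemia 92 by 0.28 (edgeR adjusted p = 0.0042). In leukemia 1 the change was -0.50 (edgeR adjusted p = 0.19), and the difference between the leukemias was 0.73 (edgeR adjusted p = 0.069), so neither passed. Slc36a4, a carrier of tryptophan and proline, had 25.3 and 8.87 CPM in leukemia 1, 33.3 and 30.9 CPM in leukemia 92, and 37.9 and 40.0 CPM in pro-B cells. All leukemia libraries were lower, leukemia 1 replicate 2 by most. The change of -0.65 over both did not pass (edgeR adjusted p = 0.29), and Slc36a4 fell slightly in leukemia 92 (-0.27, edgeR adjusted p = 0.013). Slc36a3, a little-studied member of the same family, had 3 counts over both pro-B libraries and 132 over both leukemia 92 libraries (2.96 and 2.80 CPM). That is a 50.7-fold ratio in leukemia 92 (95% exact interval 17 to 249) and a 7.13-fold ratio in leukemia 1 (2.13 to 37.3; 0.284 and 0.517 CPM), with intervals that cover counting error only. Over both leukemias Slc36a3 did not pass with edgeR (adjusted p = 0.088), and DESeq2 and the fit of all 3 groups called it higher. It lies beside Slc36a1 in RefSeq, separated by Slc36a2, which had 5 counts in all.

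Carriers of large neutral amino acids gave calls in different directions within the Slc43 family. Slc43a2 (LAT4) had 82.6 and 117 CPM in leukemia 1, 104 and 94.2 CPM in leukemia 92, and 64.6 and 68.8 CPM in pro-B cells. No leukemia library reached down to the pro-B range, with means of 99.4 ± 14.5 (SD, n = 4) and 66.7 ± 3.03 CPM (SD, n = 2). Slc43a2 rose by 0.59 (SE 0.12, edgeR adjusted p = 0.039). Slc43a1 (LAT3), with the same kind of substrate, had 34.6 and 43.6 CPM in leukemia 1, 16.5 and 17.6 CPM in leukemia 92, and 36.6 and 28.7 CPM in pro-B cells. Both leukemia 92 libraries lay under the other 4, and Slc43a1 fell in leukemia 92 (-0.93 against pro-B cells, edgeR adjusted p = 2.9e-04). Slc43a3, a carrier of purine bases, had 166 and 176 CPM in leukemia 1, 109 and 122 CPM in leukemia 92, and 165 and 152 CPM in pro-B cells. It likewise fell in leukemia 92 against pro-B cells (-0.46, edgeR adjusted p = 7.7e-04). Against leukemia 1, Slc43a1 differed by -1.20 and Slc43a3 by -0.57, and neither passed (edgeR adjusted p = 0.054 and 0.082).

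Slc7a5 (LAT1), the light chain that pairs with Slc3a2 to import leucine, had 274 and 161 CPM in leukemia 1, 113 and 121 CPM in leukemia 92, and 120 and 124 CPM in pro-B cells. Only the leukemia 1 libraries were above the pro-B range. Over both leukemias the change was 0.45 and did not pass (SE 0.30, edgeR adjusted p = 0.34). Slc7a8 (LAT2), its relative, was at 7.28 CPM in leukemia 1 replicate 2 and at 0.284 to 1.33 CPM in the other 5 libraries.

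Besides the lysosomal Slc38a7, the glutamine and small neutral amino acid carrier that passed over both leukemias was Slc38a5. Its counts were 0 and 1 in leukemia 1, 0 and 0 in leukemia 92, and 8 and 20 in pro-B cells (0.296 and 0.780 CPM). The pro-B level was 51.8 times the leukemia level (95% exact interval 8.56 to 2120, counting error only; edgeR adjusted p = 0.042). Slc38a5 is known from red cell precursors, and both it and the summed erythroid and platelet markers were higher in pro-B replicate 2 (183 CPM) than in replicate 1 (77.1 CPM). Whether those cells account for it was not tested. The 29 counts behind this gene make it the least well measured of the 6.

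Slc1a5 (ASCT2), the main glutamine exchanger of dividing cells, had 121 and 149 CPM in leukemia 1, 223 and 218 CPM in leukemia 92, and 213 and 201 CPM in pro-B cells. Leukemia 1 was lower than the other 4 libraries, by -0.66 against pro-B cells (edgeR adjusted p = 0.12), which did not pass. Slc38a1 had 380.2 and 242 CPM in leukemia 1, 309 and 291 CPM in leukemia 92, and 345 and 360.3 CPM in pro-B cells. It fell slightly in leukemia 92 (-0.23, edgeR adjusted p = 0.0086). Its neighbour in the genome, Slc38a2, the carrier that cells raise when amino acids are short, had 784 and 431 CPM in leukemia 1, 383 and 383 CPM in leukemia 92, and 369.6 and 392 CPM in pro-B cells. Replicate 1 of leukemia 1 was the highest library, leukemia 92 lay within the pro-B range, and the change over both leukemias was 0.37 (SE 0.23, edgeR adjusted p = 0.31). Slc38a10 had 108 and 130.1 CPM in leukemia 1, 129 and 133 CPM in leukemia 92, and 102 and 102 CPM in pro-B cells. All leukemia libraries were higher, and it rose in leukemia 92 by 0.36 (edgeR adjusted p = 6.3e-04). Slc38a6 had 8.69 to 11.6 CPM and passed in none of the comparisons.

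Cationic carriers gave no call with edgeR over both leukemias on summed counts, and DESeq2 and the fit of all 3 groups called Slc7a7 lower. Slc7a1 (CAT1), the main arginine importer, had 255 and 102 CPM in leukemia 1, 89.3 and 94.8 CPM in leukemia 92, and 90.1 and 87.0 CPM in pro-B cells. Replicate 1 of leukemia 1 stood far above the other 5 libraries. Slc7a6 (y+LAT2) followed the same pattern, with 179 and 89.5 CPM in leukemia 1, 97.5 and 110.4 CPM in leukemia 92, and 90.7 and 96.6 CPM in pro-B cells. Its opposite-strand neighbour Slc7a6os had 55.5 and 49.2 CPM, 40.9 and 46.2 CPM, and 47.4 and 46.5 CPM in the same order. No source used here gives the strand setting of the counts, and reads of this pair may not be told apart. The 2 changes over both leukemias were 0.33 and 0.03 (edgeR adjusted p = 0.18 and 0.89).

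Slc7a7 (y+LAT1), a cationic carrier known from macrophages, was highest in pro-B cells, at 16.2 and 15.6 CPM. It had 2.72 and 9.86 CPM in leukemia 1 and 1.27 and 2.20 CPM in leukemia 92. The fall in leukemia 92 was -3.21 (edgeR adjusted p = 5e-06), and the change over both leukemias was -1.98 (SE 0.68, edgeR adjusted p = 0.12). The summed macrophage markers were lower in the pro-B libraries, but the 9 genes were mixed, with 6 called higher and 2 lower in leukemia 92 than in pro-B cells. Summed plasmacytoid dendritic, T and NK, and erythroid and platelet markers were all higher in the pro-B libraries. The part of other cells in this gene was not tested. Slc7a4 had 36 counts in pro-B cells and 1 in leukemia 92, a 31.3-fold ratio (95% exact interval 5.26 to 1270). Slc7a3 had 0.312 to 0.850 CPM and Slc7a2 at most 0.517 CPM.

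Taken alone, leukemia 92 differed from pro-B cells at 19 of the 29 transporter genes tested. A total of 10 rose (Slc6a12, Slc6a13, Slc7a11, Slc6a6, Slc38a7, Slc38a9, Slc38a10, Slc36a1, Slc36a3 and Slc43a2), 9 fell (Slc1a4, Slc36a4, Slc38a1, Slc43a1, Slc43a3, Slc6a8, Slc6a9, Slc7a4 and Slc7a7) and 10 did not pass. Among all 14585 genes of that fit 33.9% rose and 37.8% fell, so the transporters were called about as often as other genes. Their median log2 change was 0.06 against -0.04 over all genes. These p values rest on 2 closely matching libraries of 1 leukemia and measure the spread between those libraries. In the fit of all 3 groups, 8 of the 19 were not called (Slc38a9, Slc38a10, Slc43a2, Slc1a4, Slc36a4, Slc38a1, Slc6a8 and Slc7a4). The calls of Slc1a4, Slc6a8, Slc36a4 and Slc38a1 also depended on single libraries. Leaving out 1 library leaves a group with 1, so calls that were kept in such fits are not shown to be robust. Slc6a8 lost its call whichever of the 4 was left out (edgeR adjusted p = 0.063 to 0.23). Slc1a4 lost it without leukemia 92 replicate 1 (0.17) or pro-B replicate 2 (0.21), Slc36a4 without leukemia 92 replicate 2 (0.082) or pro-B replicate 2 (0.072), and Slc38a1 without leukemia 92 replicate 2 (0.063).

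Leukemia 1 taken alone gave 0 calls among 29 transporter genes with edgeR, where 2.71% of 14442 genes rose and 3.74% fell. At an unadjusted p under 0.05, edgeR gave 6 higher transporter genes and 1 lower one, beside 4028 of all 14442 genes in either direction. DESeq2 called 4 higher (Slc1a4, Slc38a7, Slc6a12 and Slc6a13) and 0 lower, beside 1439 higher and 1576 lower among all 14442 genes. The median log2 change was 0.48 over the 29 genes and -0.01 over all genes, and 22 changes were above 0. The changes of Slc6a12, Slc6a13 and Slc7a11 were 3.81, 2.09 and 2.27 in leukemia 1 and 4.91, 3.21 and 2.46 in leukemia 92. Both comparisons used the same pro-B libraries.

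**Figure D2:**
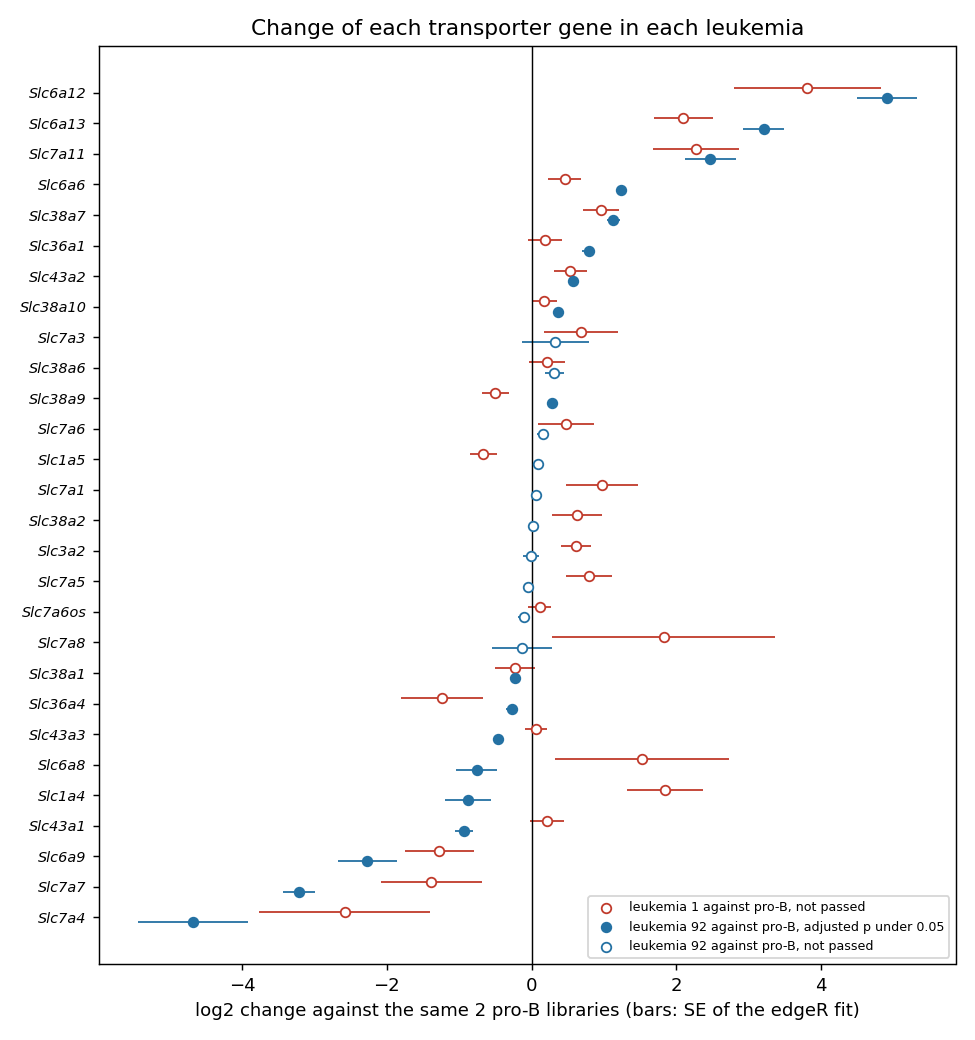
Log2 change (x axis) of the 28 transporter genes tested in both leukemias against the same pro-B libraries, red for leukemia 1 and blue for leukemia 92, with bars for the SE and filled points for an adjusted p under 0.05. Slc6a12, Slc6a13 and Slc7a11 lie far to the right in both, genes such as Slc1a4, Slc6a8 and Slc43a1 have their red and blue points on opposite sides of 0, and no red point is filled.

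Between the leukemias, edgeR called 0 of 30 transporter genes, where 1.82% of 14979 genes were higher in leukemia 92 and 1.27% lower. At an unadjusted p under 0.05, 6 were higher and 7 lower in leukemia 92, beside 3759 of all 14979 genes in either direction. DESeq2 called 4 higher (Slc1a5, Slc36a3, Slc38a9 and Slc6a6) and 6 lower (Slc1a3, Slc1a4, Slc3a2, Slc43a1, Slc43a3 and Slc7a5). Among all 14979 genes DESeq2 called 1303 higher and 1299 lower. Leaving out either leukemia 1 library leaves that group with 1, and edgeR then called far more genes over the whole table, so no count is given. The median log2 difference of the transporters was -0.32 with all libraries, -0.225 without replicate 1 and -0.05 without replicate 2. Over all genes it was -0.08, -0.04 and 0.02 in the same order. Slc1a4 (ASCT1), the serine and alanine carrier shown above, had 10.8 and 5.36 CPM in leukemia 1, 0.945 and 1.45 CPM in leukemia 92, and 1.81 and 2.57 CPM in pro-B cells. Both leukemia 1 libraries were above all others, and the difference between leukemias was -2.76 (edgeR adjusted p = 0.063). Slc1a3, a glutamate carrier, had 28 counts in leukemia 1 and 0 in leukemia 92, so it was at least 8.26-fold higher in leukemia 1 against a floor of 3 counts over the group.

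A few low genes were high in 1 leukemia 1 library only. Slc6a8, the creatine carrier, had 9.12 CPM in replicate 2 and 0.853 CPM in replicate 1, against 0.945 and 1.03 CPM in leukemia 92 and 1.48 and 1.87 CPM in pro-B cells. Slc7a8 behaved alike, with values given above. Replicate 2 is also the library with 16100 CPM of granulocyte and 2680 CPM of macrophage markers, and their part in these 2 genes was not tested. Slc38a8, a glutamine carrier, had 3 and 32 counts in leukemia 1, 7 and 6 in leukemia 92, and pro-B cells had 0 in each library. It was not tested, and by counts it was at least 8.65-fold higher in leukemia against a floor of 3 counts over the pro-B group. The glutamate carriers Slc1a1 and Slc1a2 had at most 0.273 CPM.

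**Figure D3:**
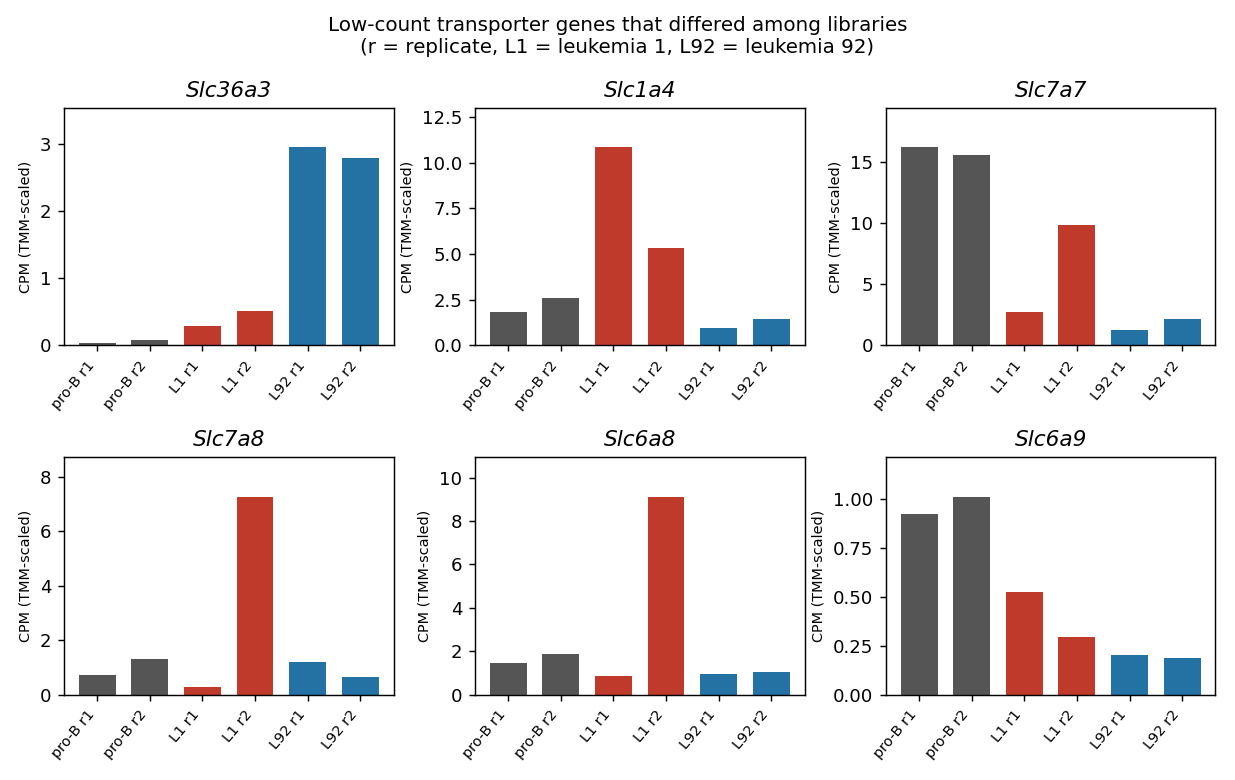
CPM (y axis, linear, from 0, a scale of its own for each gene) of 6 transporter genes of low abundance, 1 bar per library in grey (pro-B), red (leukemia 1) and blue (leukemia 92), with no error bars. Slc36a3 is high in leukemia 92, Slc1a4 in leukemia 1, Slc7a7 and Slc6a9 in pro-B cells, and Slc7a8 and Slc6a8 in leukemia 1 replicate 2 alone.

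The carriers that ATF4 is known to induce were read beside 18 other genes of its response, the kinases upstream of it included, of which 16 were tested. Over both leukemias 6 of these rose, 1 fell and 9 did not pass, with a median log2 change of 1.08 (0.02 over all genes, of which 9.54% rose and 10.7% fell, as above). Sesn2, which restrains mTORC1 when leucine is short, had 72.2 and 21.2 CPM in leukemia 1, 41.6 and 35.0 CPM in leukemia 92, and 11.3 and 12.4 CPM in pro-B cells, a rise of 1.83 (edgeR adjusted p = 0.013). Ddit4, another brake on mTORC1, rose by 2.16 (edgeR adjusted p = 0.015). Ppp1r15a, which reverses the stress block on translation, was called at 0.94 (edgeR adjusted p = 0.020) although leukemia 1 replicate 1, at 58.7 CPM, lay under the pro-B libraries at 99.7 and 104 CPM. Eif2ak2, a kinase that senses double-stranded RNA, fell (-0.67, edgeR adjusted p = 0.039). Without leukemia 1 replicate 1 only 1 of these 7 calls held, and without replicate 2 only 2. With all libraries 1458 of all 15280 genes rose and 1631 fell. Without replicate 1, 935 rose and 1022 fell of 14631, and without replicate 2, 993 and 1725 of 14418. These all-gene counts belong equally to the same fits of the lists below.

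Atf4 itself was high in leukemia 1 (763 and 642 CPM) beside 331 and 364 CPM in leukemia 92 and 327 and 331 CPM in pro-B cells. It was lower in leukemia 92 than in leukemia 1 by -1.02 (edgeR adjusted p = 0.040). Asns, the asparagine synthetase that ATF4 induces, had 106 and 75.5 CPM in leukemia 1, 19.1 and 23.9 CPM in leukemia 92, and 14.7 and 12.9 CPM in pro-B cells. The difference between leukemias was -2.08 (edgeR adjusted p = 0.031). With Eif4ebp1 (-0.87, edgeR adjusted p = 0.043), 3 of 16 genes of the list were lower in leukemia 92 and 0 higher, beside 1.27% and 1.82% of all genes. With any 1 of the 6 libraries left out, the difference ranged from -0.88 to -1.13 for Atf4, -1.81 to -2.31 for Asns and -0.84 to -0.88 for Eif4ebp1. Such fits leave 1 library in a group, and calls then turn on which pairs set the spread, for all genes alike. They cannot tell whether the 3 calls are robust. Of the transporter rows, Slc7a5, Slc3a2, Slc1a4, Slc7a1, Slc38a2, Slc43a3, Slc7a6os and Slc1a3 were also highest in both leukemia 1 libraries. Slc1a5, Slc38a9 and Slc36a4 were lowest in both. Slc7a11 differed between the leukemias by 0.14 (edgeR adjusted p = 0.89). Whether ATF4 has a part in any of these was not tested.

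**Figure D4:**
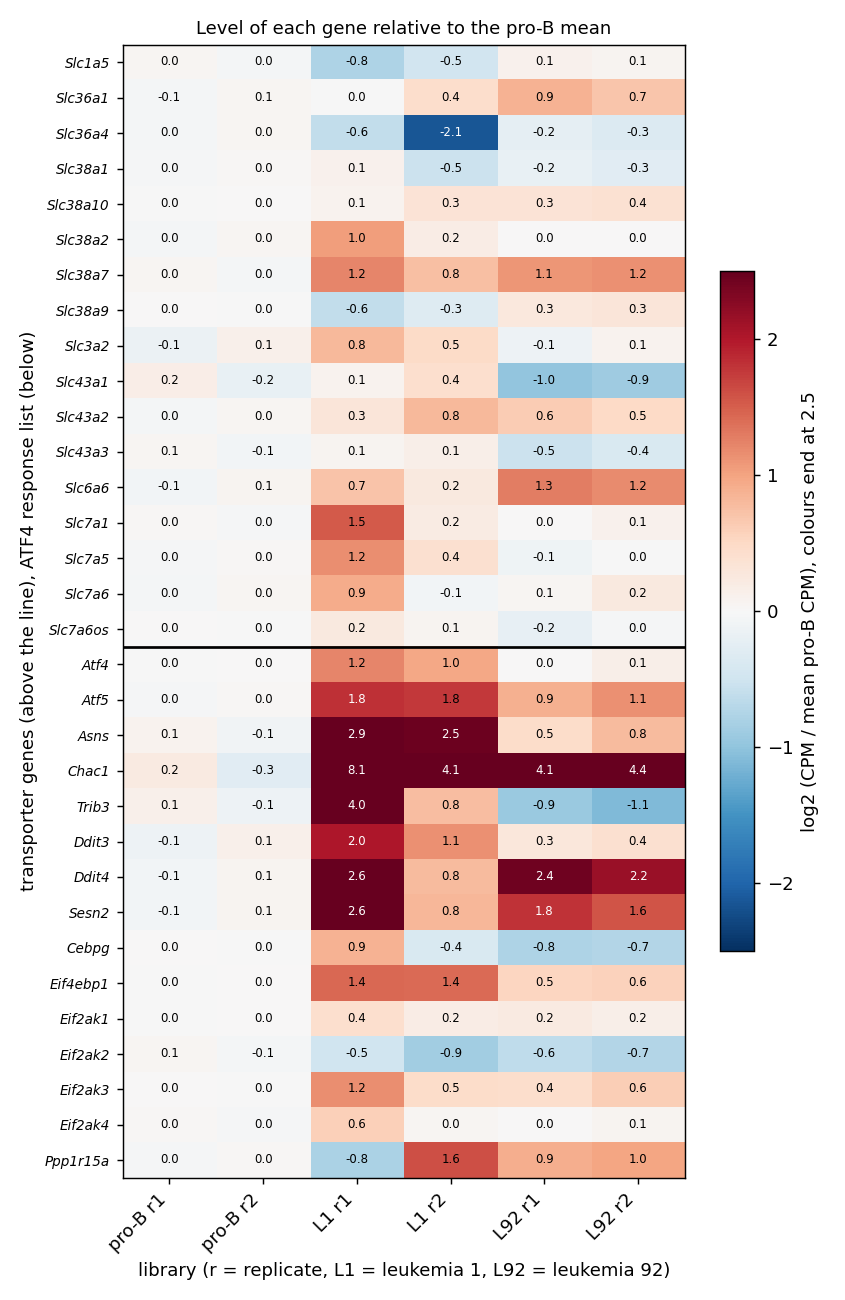
Log2 ratio of CPM to the mean of the pro-B libraries (colour and printed value) for the 17 transporter genes with a mean of at least 20 CPM, above the line, and 15 genes of the ATF4 list, below it, in each of the 6 libraries (columns). Slc38a7 is positive in all 4 leukemia libraries, while Slc7a1, Slc7a5 and Slc38a2 are highest in leukemia 1 replicate 1, as is Trib3.

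A list of glutathione and other redox genes held 6 rises and 1 fall among 17 tested, beside 9.54% and 10.7% of all genes, with a median of 0.45. The counts were 4 and 1 without leukemia 1 replicate 1, and 2 and 0 without replicate 2. Txnrd1, thioredoxin reductase, had 361 and 274 CPM in leukemia 1, 287 and 306 CPM in leukemia 92, and 107 and 104 CPM in pro-B cells. It rose by 1.54 (edgeR adjusted p = 0.011). Hmox1 (heme oxygenase) rose by 2.96 and Gpx1 (glutathione peroxidase) by 1.15 (edgeR adjusted p = 0.012 and 0.018). Gclc, the catalytic subunit of the rate-limiting enzyme of glutathione synthesis, fell, from 149.6 and 163 CPM in pro-B cells to 128 and 47.1 CPM in leukemia 1 and 68.3 and 71.0 CPM in leukemia 92 (-1.005, edgeR adjusted p = 0.022). Without leukemia 1 replicate 2, Hmox1, Gpx1 and Gclc no longer passed (edgeR adjusted p = 0.086, 0.12 and 0.22), and Txnrd1 did (0.014).

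Genes of amino acid sensing by mTORC1 gave 5 rises and 2 falls among 31 tested, beside 9.54% and 10.7% of all genes, with a median of 0.14. The counts were 3 and 5 without leukemia 1 replicate 1, and 3 and 3 without replicate 2. Besides Sesn2, the rises with the smallest p were 0910001L09Rik, the older symbol of Lamtor4 in the lysosomal anchor of mTORC1 (1.39, edgeR adjusted p = 0.016), and the Rag GTPase Rragc (0.81, edgeR adjusted p = 0.022). Rptor, the subunit that recruits substrates to mTORC1, fell from 85.2 and 77.0 CPM in pro-B cells to 39.9 and 45.4 CPM in leukemia 1 and 43.7 and 43.9 CPM in leukemia 92 (-0.90, edgeR adjusted p = 0.023). Gatsl2, of the arginine sensor family, fell as well (-2.65, edgeR adjusted p = 0.026). Rragc, Rptor and Gatsl2 passed without any 1 of the 4 leukemia libraries, and 0910001L09Rik did not without leukemia 1 replicate 2 (0.077).

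Enzymes of amino acid synthesis and breakdown gave 4 rises and 0 falls among 35 tested, beside 9.54% and 10.7% of all genes, with a median of 0.31. DESeq2 called 8 rises and 2 falls, beside 2335 and 2434 of all 15280 genes. The edgeR counts were 1 and 0 without leukemia 1 replicate 1, and 2 and 1 without replicate 2. Cth, which makes cysteine inside the cell and so serves the same end as cystine import, had 8.37 and 8.57 CPM in leukemia 1, 3.95 and 2.94 CPM in leukemia 92, and 0.666 and 0.624 CPM in pro-B cells. It rose by 3.20 (edgeR adjusted p = 0.035). Glud1 and Got1, enzymes that turn over glutamate, rose by 0.81 and 1.16 (edgeR adjusted p = 0.035 and 0.042). Without leukemia 1 replicate 1 neither Cth nor Glud1 passed (0.051 and 0.052), nor did Got1 without replicate 2 (0.071). Phgdh, the entry enzyme of serine synthesis, was lower in leukemia 92, at 55.5 and 57.7 CPM, than in leukemia 1, at 120 and 138 CPM (-1.19, edgeR adjusted p = 0.029), with 102 and 105 CPM in pro-B cells. With any 1 of the 6 libraries left out, the Phgdh difference was -1.08 to -1.27. As for Atf4 above, such fits leave 1 library in a group and cannot tell whether the call is robust.

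Amino acid and peptide carriers of other families, most of them in the lysosome or mitochondrion, gave 4 rises and 3 falls among 24 tested, beside 9.54% and 10.7% of all genes, with a median of 0.37. The counts were 0 and 1 without leukemia 1 replicate 1, and 3 and 2 without replicate 2. Slc15a3, a lysosomal peptide and histidine carrier, had 219 and 105 CPM in leukemia 1, 382 and 396 CPM in leukemia 92, and 28.3 and 31.9 CPM in pro-B cells, a rise of 3.21 (edgeR adjusted p = 0.031). Its relative Slc15a4 rose by 0.79 (edgeR adjusted p = 0.037), and the mitochondrial glutamate carrier Slc25a18 by 1.72 (edgeR adjusted p = 0.041). Slc25a15, the mitochondrial ornithine carrier, fell (-1.24, edgeR adjusted p = 0.028), as did the serine carrier Sfxn1 (-0.75, edgeR adjusted p = 0.033) and the mitochondrial glutathione carrier Slc25a40 (-1.19, edgeR adjusted p = 0.045). Slc25a15 alone of these 6 passed without any 1 of the 4 leukemia libraries.

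The 6 calls over both leukemias rest on few libraries. Slc38a7 and Slc6a13 no longer passed without leukemia 1 replicate 1 (edgeR adjusted p = 0.061 for each), Slc6a12 without replicate 2 (0.086), Slc7a11 without either (0.059 and 0.070) and Slc43a2 without either (0.054 and 0.18). Without either pro-B library that group is left with 1, and edgeR called no gene of the whole table, the transporters included. Slc38a5 was removed by the filter on low counts in 5 of these 6 fits and did not pass in the other, without pro-B replicate 1 (0.19).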

How the data were processed

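Total RNA of 6 mouse libraries, 2 each of leukemia 1, leukemia 92 and pro-B cells, was made with RNeasy kits, DNase and TruSeq RNA kits, per the labels' protocols. The deposited table holds raw counts per gene, made by the authors. The tools and build per the submitters' processing notes are STAR 2.4, HTSeq 0.6.1, DESeq2 and mm9, with no role or order stated. The sources used here give neither strand setting nor annotation. The entries that name no gene held 34.0% to 39.6% of a library and were left out.

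Tests used R 4.3.3 and edgeR 4.0.16. Genes were filtered by filterByExpr (minimum count 10), scaled by TMM factors and tested with the robust quasi-likelihood test, with Benjamini-Hochberg adjustment over all genes tested and a threshold of 0.05. SEs come from the F statistic. Both leukemias were compared with pro-B cells on counts summed within each leukemia (2 against 2). The leukemias were compared in 1 fit of 6 libraries, and each leukemia with pro-B cells in its own 4 libraries. Alternatives were DESeq2 1.42.0, its size factors, no filter, a fit of all groups, a replicate block, and leaving out libraries. Where a group had 3 counts or fewer, ratios of summed counts are given with 95% exact intervals, or against a floor of 3 counts, for counting error alone. The scripts were tested on simulated data.

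The transporter rule and the gene lists were chosen with earlier results of these data known. Values by library are given for transporters called over both leukemias or between them and for those with a mean of at least 20 CPM. Other transporters are given by ranges, or named where a comparison turns on them, some after their values were seen. From each list up to 3 genes per direction with the smallest p are named, plus Atf4, Asns, Eif4ebp1, Trib3, Phgdh and Cth. Of 194 list entries 193 matched a symbol. Promoters are from RefSeq GRCm38.p6.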

Additional observations from a re-analysis of the deposited data

How the results depend on the processing

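The labels do not say whether a replicate number marks a shared animal or day. Deviations of same-numbered libraries correlated at -0.18, 0.06 and -0.04 over the 3 pairs of groups. With 2 libraries per group, these values cannot tell whether anything is shared. With the replicate block in a fit of all 3 groups, 6 transporter genes rose and 1, Slc7a7, fell over both leukemias. Of all 14979 genes 1448 rose and 1925 fell. Slc43a2 did not pass there (0.57, edgeR adjusted p = 0.097), nor in the same fit without the block (0.58, 0.064), and neither fit called Slc38a5. With the block the counts were 0 and 0 between the leukemias, where 0 of all 14979 genes were called in either direction. In leukemia 92 they were 10 and 8, beside 4867 and 5401 of all 14585 genes. In leukemia 1 they were 0 and 0, beside 161 and 126 of all 14442 genes. Over both leukemias 5 rose and 1 fell. DESeq2 called 7 rises (Slc36a3 and Slc6a6 added) and 2 falls (Slc38a5 and Slc7a7), beside 2335 and 2434 of all 15280 genes. The fit of all 3 groups called 6 rises (Slc36a3 and Slc6a6 added, Slc43a2 lost) and 2 falls (Slc6a9 and Slc7a7). Of all 14979 genes it called 2107 rises and 2605 falls. Without both libraries of leukemia 1 there were 10 rises and 10 falls, and without both of leukemia 92 there were 15 and 8. Leaving out 1 leukemia library gave 1 to 5 rises and 0 to 2 falls, beside 935 to 1544 rises and 1022 to 1725 falls over all genes. Between the leukemias DESeq2 called 4 higher and 6 lower, beside 1303 and 1299 of all 14979 genes. Leaving out 1 library there leaves a group with 1, and calls over the whole table then turned on which library was left out, so no count is given. In leukemia 92 the fit of all 3 groups gave 7 rises and 5 falls, and leaving out 1 library gave 10 to 12 rises and 6 to 9 falls. Of all 14979 genes that fit of all 3 groups gave 2198 rises and 2498 falls in leukemia 92. Leaving out 1 library of leukemia 92 or pro-B cells also leaves a group with 1. Many genes of the whole table were called in those fits too. The range of counts therefore cannot tell whether the transporter calls are robust. In leukemia 1 DESeq2 gave 4 rises, beside 1439 rises among all 14442 genes. The fit of all 3 groups gave 5 rises and 1 fall there, beside 1431 and 1607 of all 14979 genes. Leaving out 1 library leaves a group with 1 there too, and calls again turned on the library left out, over all genes. Without the filter 6 rose and 1 fell over both leukemias, beside 1496 and 1596 of all 23173 genes. With DESeq2's size factors 4 rose, beside 1401 of all 15280 genes, Slc7a11 missing the threshold (edgeR adjusted p = 0.051).

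Direction turned for a few changes that had not passed. Without leukemia 1 replicate 1 Slc38a9 was at 0.0331 (range over single libraries left out -0.0901 to 0.0331), and Slc7a6os ranged from -0.0104 to 0.0700. Without both libraries of leukemia 1, Slc1a5 was at 0.11, Slc38a9 at 0.30, Slc7a5 at -0.0308 and Slc7a6os at -0.0901. Without both of leukemia 92, Slc43a1 was at 0.23 and Slc43a3 at 0.0709. The cause of these moves was not tested. Genes with under 20 counts in all cannot show moderate differences at this depth.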
